A study of Mus musculus with 10 samples.

Results

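The 4 INO80 subunit knockdowns of the mouse embryonic stem cell line J1 were compared as one set with the non-targeting control. The comparison used all 10 arrays of the series: the 2 arrays titled J1_NT_siRNA (NT) and 8 knockdown arrays, 2 each for siRNAs against Ino80, Ino80b, Ino80c and Ino80e. The pooled change of a gene is the mean of the 4 knockdown means minus the NT mean, and the text follows the genes whose change had the same sign in all 4 knockdowns. All 5 groups were unmodified J1 cells, maintained in ESGRO medium and kept in M15 medium for the transfection, and total RNA was taken 96 hours (day 4) after it. By the labels the treatments differed only in the siRNA. The design text of the series calls the 2 arrays of a group biological replicates, and names the NT arrays Mock. By its title, the series asked how the complex takes part in the regulatory network behind self-renewal. There was 1 control siRNA for all knockdowns, and the labels do not say whether a knockdown used 1 siRNA or a mixture.

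INO80 is a chromatin remodeller that uses ATP to slide and space nucleosomes, and Ino80 encodes its motor. Ino80b, Ino80c and Ino80e encode accessory subunits that have no motor activity. In embryonic stem cells, remodellers keep regulatory DNA open for the transcription factors of pluripotency, such as Oct4 (Pou5f1), Nanog, Klf4 and Esrrb. Knocking down several subunits in turn is a common way to study a complex, since each siRNA has its own off-target genes.

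Levels are log2 of the processed signal minus the 75th percentile of the array, so that 0 is the level of that percentile. An array had 66.4% to 79.0% of its probes well above background, and the number of arrays limits the precision. The 9 stem cell markers on the array (of 10 listed) were well above background on all 10 arrays, and the log2 of their summed level was 9.23 to 9.31 in NT and 8.70 to 9.53 in the knockdowns. Log2 levels of the NT pair correlated at r = 0.987 across genes, against 0.990 to 0.993 for the knockdown pairs. On the first principal component, which held 28.3% of the variance, NT replicate 2 lay at -75.9, NT replicate 1 at -30.9 and the knockdown arrays between -9.78 and 33.8. The NT arrays were alone on 1 slide, Ino80 and Ino80b shared the second and Ino80c and Ino80e the third, so siRNA against the complex and slide cannot be told apart.

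Each target was lower in its own knockdown. Ino80 was left at 43.5% of NT in its knockdown (95% interval 35.3% to 53.7%), Ino80b at 25% (14.2% to 43.8%), Ino80c at 19.8% (15.4% to 25.4%) and Ino80e at 43.3% (27.7% to 67.8%). These values are of the probe with the highest mean signal. With the probes of a gene averaged, the log2 fall was smaller for Ino80 (-0.86, against -1.20) and for Ino80c (-1.98, against -2.34). The fall passed the test for Ino80, Ino80b and Ino80c (limma, Benjamini-Hochberg adjusted p 0.00423, 0.027 and 0.00997) and not for Ino80e (adjusted p 0.0831). The Ino80b call was lost without NT replicate 2 or any 1 of the 6 Ino80b, Ino80c and Ino80e arrays (adjusted p 0.0509 to 0.183). The Ino80c call was lost without NT replicate 2 (adjusted p 0.0544) and without Ino80c replicate 1 (0.0802) or replicate 2 (0.0697). Ino80b was also at 46.4% of NT in the Ino80c knockdown and at 38.1% in the Ino80e knockdown, without passing the test there (adjusted p 0.0886 and 0.0889). Pooling dilutes a fall that occurs in 1 group: the pooled changes of Ino80, Ino80c and Ino80e were -0.18, -0.30 and -0.22, none of them called. Ino80b was called at -1.05 ± 0.27 (SE), but its sign was mixed, with +0.29 in the Ino80 knockdown.

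Of 20663 genes tested, 3782 (18.3%) passed an adjusted p of 0.05 in the pooled comparison. In 2657 of them (12.9% of the tested genes) the knockdowns were higher and in 1125 (5.44%) lower. The change had one sign in all 4 knockdowns for 3646 called genes (17.6%), made up of 2604 rises (12.6%) and 1042 falls (5.04%). The 4 comparisons share the same 2 NT arrays, and 62.3% of all genes had one sign in all 4, called or not, so the shared sign alone carries little information. Among the 3646, the knockdown arrays did not overlap the NT arrays for 3265 (89.6%). Over all genes, called or not, the arrays did not overlap in 5517 (26.7%). The changes were mostly modest, with a median size of 0.69 on the log2 scale, and 673 genes (3.26% of those tested) reached 2-fold, 460 rises (2.23%) and 213 falls (1.03%). Taken singly, the Ino80 knockdown had 2566 calls (12.4%), Ino80b 1339 (6.48%), Ino80c 1317 (6.37%) and Ino80e 1 (0.00484%). None of the 3646 was called in all 4 single knockdowns, and 1202 were called in no single one. The median standard error was 0.16 for the pooled contrast and 0.21 for a single one.

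The counts rest on the NT arrays, and on NT replicate 2 above all. Without NT replicate 2, 24 genes were called, and without NT replicate 1, 4185. Leaving out a knockdown array gave 2195 (Ino80b replicate 1), 1271 (Ino80b replicate 2), 1695 (Ino80c replicate 1), 1922 (Ino80c replicate 2), 1961 (Ino80e replicate 1), 1369 (Ino80e replicate 2), 4056 (Ino80 replicate 1) and 2879 (Ino80 replicate 2). Against NT replicate 1 alone the 2604 rises had a median of 0.60 and the 1042 falls of -0.59, a sign that the choice of these genes largely fixes. Against NT replicate 2 alone the medians were 0.74 and -0.81. Of the 3646 genes, 16 were also called with one sign without NT replicate 2, and 2340 without NT replicate 1.

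**Figure D1:**
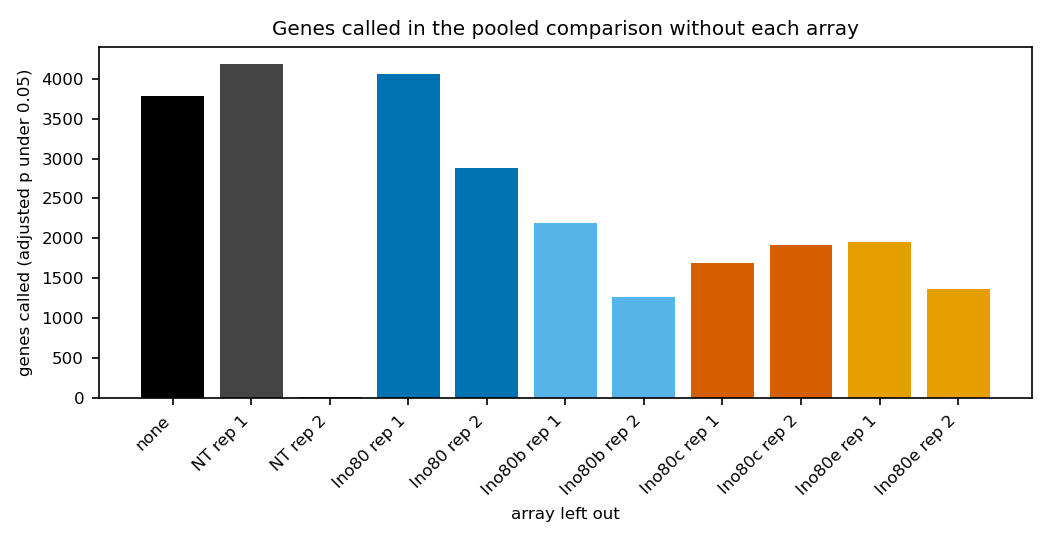
Bars give the number of genes called in the pooled comparison (limma, adjusted p under 0.05) with all 10 arrays (none) and with each array left out. The bar without NT replicate 2 stands at 24 genes, against 3782 with all arrays.

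Which direction prevails also depends on the scaling between arrays. The median pooled change of all genes was 0.19, not 0, and 70.3% of the calls were higher in the knockdowns. With each array scaled to its median, the median change was 0.06 and 40.4% of 1846 calls were higher. Quantile normalization gave 0.08 and 55.2%, and the authors' deposited table gave 0.03 and 41.8%. The excess of rises over falls thus depends on the scaling, and list medians below are given relative to the median of the 20663 genes where they are printed.

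The largest rises measured on every array were led by genes of a state that resembles the embryo at the 2-cell stage. Zscan4c, which encodes a zinc finger protein tied to telomere maintenance in rare 2-cell-like stem cells, was at -0.47 and -0.70 on the NT arrays and at 1.00 to 2.49 (median 1.66) on the knockdown arrays. Every knockdown array lay above both NT arrays, and the pooled rise of 2.25 ± 0.18 (4.75-fold, adjusted p 0.00693) was seen in the Ino80 (2.83), Ino80b (2.24), Ino80c (2.24) and Ino80e (1.68) knockdowns. Usp17la, which encodes a deubiquitinating enzyme, was at -1.95 and -2.38 in NT and at -0.76 to 0.77 (median 0.08) in the knockdowns, a rise of 2.21 ± 0.20. The order of the knockdown means was the same as for Zscan4c. Tcstv3 and Tcstv1, of a small 2-cell gene family, rose by 1.69 ± 0.21 and 1.67 ± 0.26. Zscan4, Usp17l, Tcstv and Pramel genes have near-identical copies, so a probe's signal may come from more than one of them.

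The other leading rises included members of the PRAME-like and galectin families. Spo11, the enzyme that cuts DNA to start meiotic recombination, stood at -5.76 and -5.31 in NT and at -4.38 to -3.08 (median -3.53) in the knockdowns. All 8 knockdown arrays were above NT, and the rise was 1.91 ± 0.26 (adjusted p 0.0111). Pramel37 and Pramel39, of the PRAME-like family, rose by 1.79 ± 0.16 and 1.78 ± 0.19, and on both the Ino80e knockdown showed the smallest change (1.05 and 1.06). Lgals6, which keeps its name from the array design, and Lgals4 encode galectins, proteins that bind sugars. They rose by 1.76 ± 0.19 and 1.78 ± 0.19, although the second kept probe of Lgals4 changed by only 0.10. Lmo3, a LIM-domain protein, and Dcn, a matrix proteoglycan of mesenchyme, rose by 1.64 ± 0.26 and 1.61 ± 0.25. Defcr-rs2, a defensin-related gene, rose by 1.66 ± 0.43 with the arrays overlapping: NT was at -3.45 and -5.08, and 1 knockdown array was at -3.63.

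The leading falls included membrane transporters. Slc4a7, a sodium bicarbonate cotransporter, had the largest fall, -3.19 ± 0.54 (adjusted p 0.0161), from 3.70 and 5.83 in NT to 0.77 to 1.97 (median 1.80) in the knockdowns. The groups did not overlap, but the NT arrays themselves lay far apart. Slc11a1, a metal transporter of phagocyte vesicles, was at -0.86 and -0.35 in NT and at -4.43 to -1.15 (median -4.01) in the knockdowns. Its fall of -2.78 ± 0.23 was -3.57, -3.58 and -3.26 in the Ino80, Ino80b and Ino80c knockdowns and -0.70 in the Ino80e knockdown.

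Septin1, a GTPase of the septin filaments, was at -0.31 and 0.60 in NT and at -3.17 to -1.47 (median -2.70) in the knockdowns, a fall of -2.63 ± 0.23. Bmp4, the signalling ligand that supports self-renewal together with LIF, was at 2.54 and 2.98 in NT and at -0.05 to 2.30 (median 0.47) in the knockdowns. The 2 Ino80e arrays were the highest of the 8, and still below both NT arrays. Its pooled fall was -1.96 ± 0.14 (adjusted p 0.00693). Parvb, an adhesion protein that binds integrin-linked kinase, fell by 1.95 ± 0.15 on the log2 scale, and its second probe gave -1.63. Zfp57, which protects imprinted DNA methylation, went from 1.59 and 1.97 to -1.32 to 0.56 (median -0.28), a fall of -2.08 ± 0.23.

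Foxp4, a forkhead transcription factor, changed by -2.10 ± 0.31 on one probe and by -1.97 on the other. Pgc, the precursor of a gastric protease, changed by -2.18 ± 0.38. Git1, a GTPase-activating scaffold of focal adhesions, changed by -1.80 ± 0.29 and Hsd17b14, a steroid dehydrogenase, by -1.72 ± 0.28. Zfp385, a zinc finger gene under its design name, changed by -1.78 ± 0.33. All 5 passed the test, with adjusted p between 0.0129 and 0.0188, and none of their knockdown arrays reached the NT range.

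**Figure D2:**
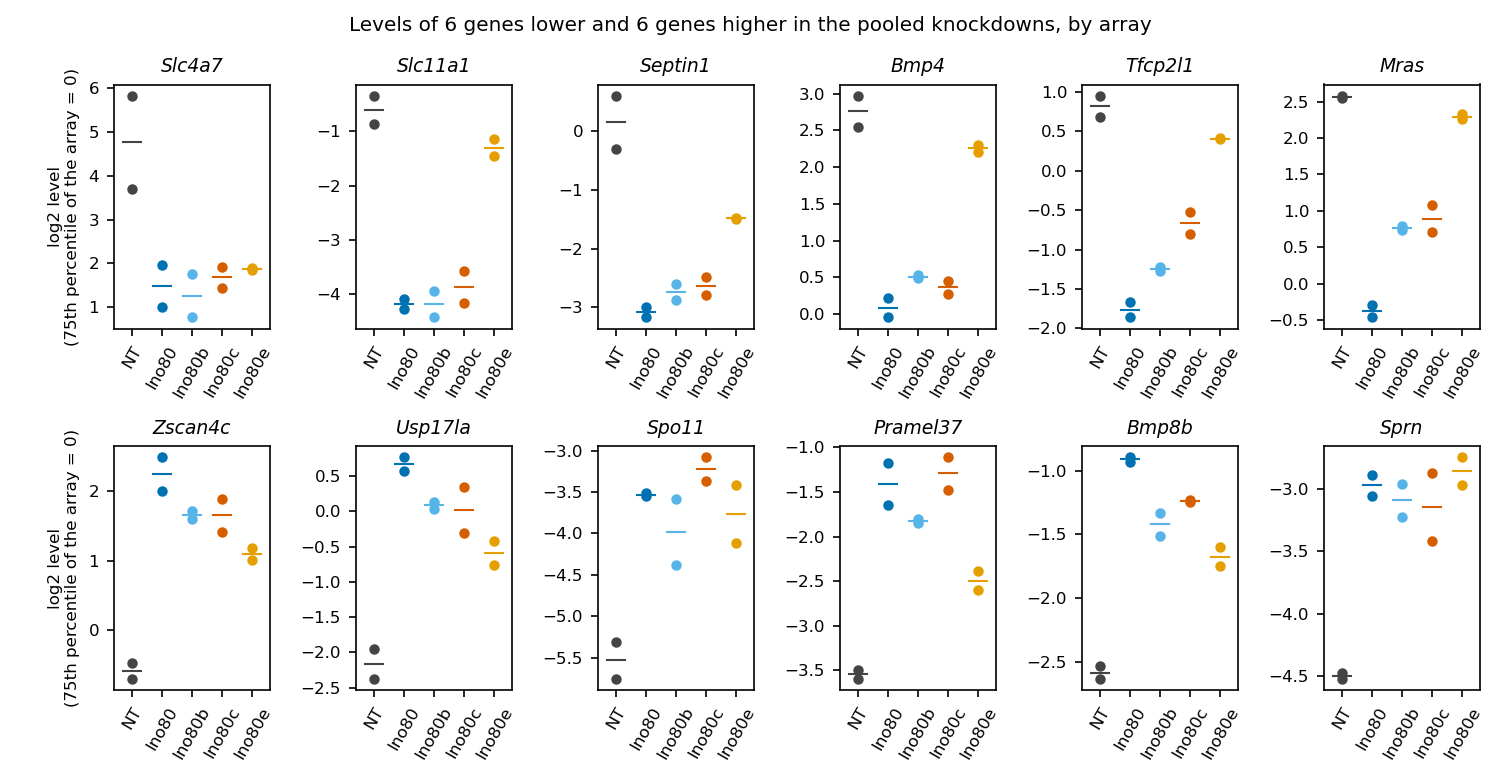
Points give the log2 level on each array (75th percentile of the array at 0) and short lines the group mean, for NT and each knockdown, with 6 falls in the upper row and 6 rises in the lower row. Slc4a7 and Sprn stand at like levels in the 4 knockdowns, while Bmp4, Tfcp2l1 and Mras step up towards NT in the Ino80e knockdown.

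Promoters of the 2 leading falls and the 2 leading rises with a RefSeq entry (build GRCm38.p6) are shown so that their base composition and motifs can be seen beside the changes. Each runs 5′ to 3′ from 250 bases before the gene's start to 50 bases after it, on the + strand. They lie at chr14:14718534-14718833 (Slc4a7), chr1:74374953-74375252 (Slc11a1), chr7:11005495-11005794 (Zscan4c) and chr7:104856766-104857065 (Usp17la). Capitals mark matches on either strand to the 8 motifs searched, chosen for factors of this network and for general promoter features. The motif of YY1 was AANATGGC and the octamer bound by Oct4 was ATGCAAAT. For SOX factors the letters were CCATTGT, and the half-site of Esrrb, the ERRE, was TCAAGGTCA. The CACCC box of Klf factors was GGGNGTGG, the E-box of Myc was CACGTG and the cAMP response element was TGACGTCA. The TATA box was TATAAA.
Slc4a7: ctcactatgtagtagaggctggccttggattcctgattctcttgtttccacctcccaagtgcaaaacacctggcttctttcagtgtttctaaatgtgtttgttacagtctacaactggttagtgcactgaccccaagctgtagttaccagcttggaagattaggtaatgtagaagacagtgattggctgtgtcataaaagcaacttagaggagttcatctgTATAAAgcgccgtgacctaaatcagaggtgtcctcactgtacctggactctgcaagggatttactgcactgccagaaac
Slc11a1: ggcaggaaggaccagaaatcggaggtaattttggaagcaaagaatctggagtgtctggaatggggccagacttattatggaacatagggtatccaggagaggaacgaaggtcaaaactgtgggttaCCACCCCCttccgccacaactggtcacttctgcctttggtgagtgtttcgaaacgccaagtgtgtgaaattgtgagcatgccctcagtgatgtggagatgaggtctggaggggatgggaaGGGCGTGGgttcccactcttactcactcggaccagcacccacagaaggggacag
Zscan4c: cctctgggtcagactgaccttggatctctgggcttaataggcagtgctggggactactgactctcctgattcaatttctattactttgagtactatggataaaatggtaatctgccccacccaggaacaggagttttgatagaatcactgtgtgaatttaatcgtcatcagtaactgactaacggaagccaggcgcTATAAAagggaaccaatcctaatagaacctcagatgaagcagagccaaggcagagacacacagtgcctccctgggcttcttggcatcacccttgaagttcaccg
Usp17la: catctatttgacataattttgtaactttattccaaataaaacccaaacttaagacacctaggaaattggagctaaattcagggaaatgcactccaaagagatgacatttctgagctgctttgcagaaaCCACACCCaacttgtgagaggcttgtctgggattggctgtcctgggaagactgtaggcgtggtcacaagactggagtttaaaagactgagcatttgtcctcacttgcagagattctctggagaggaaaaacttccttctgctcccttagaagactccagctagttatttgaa
Zscan4c held a TATA match 54 bases before the start and Slc4a7 one 29 bases before it. Slc11a1 held 2 CACCC matches and Usp17la 1. No match overlapped another. All 4 windows were poor in CpG, with an observed over expected ratio of 0.24 (Zscan4c), 0.08 (Usp17la), 0.13 (Slc4a7) and 0.35 (Slc11a1), against a median of 0.71 over all genes tested.

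Among the tested genes 12095 (58.5%) had a promoter entry. CpG-rich promoters (ratio over 0.6 and GC over 50%) made up 58.5% of all, 57.8% of the called rises and 64.6% of the called falls. Among changes of at least 2-fold the shares were 36.7% of 251 rises and 52.1% of 140 falls. TATA was matched in 9.37% of all promoters of this length, in 10.3% of rises and 6.86% of falls, and in 17.5% and 13.6% of those of at least 2-fold. YY1, a factor that can work with INO80, had a match in 7.68% of all promoters, 5.30% of rises and 8.57% of falls. For the 2-fold sets the YY1 shares were 1.99% and 2.86%. The difference between these shares was not tested. Promoters that are not CpG-rich also belong to dimmer genes: the median NT level was 0.83 for CpG-rich promoters and -3.01 for the others. The part of that level in the shares was not tested.

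A few genes changed between a measured level and background. Olfr103, Olfr456 and Olfr738, odorant receptors, were not well above background on either NT array and were so on all 8 knockdown arrays. This put them at least 3.16-fold, 2.82-fold and 2.58-fold higher. Of 328 odorant receptor genes tested 66 were called higher, beside 2657 of all 20663 genes. Median scaling called 40 of the 328 higher, beside 746 of all genes, and quantile normalization 39 beside 1865. With normexp background correction the numbers were 107 and 5141. In the authors' deposited values only 22 odorant receptors were called higher, beside 1688 of all genes. There the share of odorant receptors was below that of all genes, while under the other settings it was above. The rises of this paragraph passed the filter through the knockdown arrays only, and the falls through the NT arrays only. Their tests rest on background signal in the dimmer group, so no p-value is given. D14Ertd171e and Psmb11, a proteasome subunit of the thymus, were at least 2.21-fold and 1.90-fold higher. In the other direction, Kcnk2, a potassium channel, Gpr149, an orphan receptor, and Camp, an antimicrobial peptide, were at least 3.08-fold, 2.05-fold and 1.87-fold lower. Tbx22, a T-box factor, and Grem1, a secreted BMP antagonist, were at least 1.53-fold and 1.32-fold lower. Here the fold sets the brighter group's mean against the lowest signal well above background on each array of the dimmer group, or the probe's own if higher. In all, 106 of the 2604 rises were not well above background on either NT array, and 12 of the 1042 falls on any knockdown array.

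Calls that survived the removal of any array were few and mostly strong falls. Of the 3646 genes, 14 were called with one sign in each of the 10 fits that leave out 1 array. Of these, 11 fell: Gpr149, Septin1, Bmp4, Parvb, Slc66a2, Mras, Tle5, Myo1f, Tfcp2l1, Stmn3 and Gjb5. The rises were A530040E14Rik (2.09 ± 0.15), the unnamed transcript NAP029143-1 (at least 2.58-fold) and Bmp8b, a BMP ligand. NAP029143-1 was not well above background on either NT array, and Gpr149 on no knockdown array. Each passed the filter through its brighter arrays only, so both calls rest on background signal elsewhere. The 14 were singled out after their values were seen. Bmp8b stood at -2.64 and -2.54 in NT and at -1.75 to -0.89 (median -1.29) in the knockdowns, a rise of 1.28 ± 0.10 present on all 8 arrays. Tle5, of the Groucho family, fell by 1.67 ± 0.16 and Slc66a2, a membrane protein with PQ loops, by 1.71 ± 0.14 on the log2 scale. The NT arrays lay close together for Mras, a Ras-related GTPase, at 2.55 and 2.58, and apart for Gpr149, at -4.31 and -5.81.

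Whether the knockdowns differed among themselves was asked with an F test over the 4 knockdown means. The NT mean does not enter it, but the NT pair shares in the estimate of the spread. It called 304 genes (1.47%), among them 107 of the 3646 (2.93%), 66 falls and 41 rises. In 86 of the 107 the change was largest in the Ino80 knockdown, in 87 it was smallest in the Ino80e knockdown, and in 72 both held. Both held for 52 of the 66 falls. Leaving out any 1 of the 8 knockdown arrays cut this count to between 30 (Ino80e replicate 2) and 130 (Ino80 replicate 1), and leaving out an NT array gave 269. The slide contrast, Ino80 and Ino80b against Ino80c and Ino80e, called 487 genes (2.36%), 118 higher (0.571%) and 369 lower (1.79%), 173 of them among the 3646 (4.74%), and slide and knockdown cannot be told apart in it. Without 1 knockdown array that contrast called 68 (Ino80b replicate 1) to 308 genes (Ino80 replicate 1).

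Mras showed a graded fall. It changed by -2.94 in the Ino80, -1.80 in the Ino80b, -1.67 in the Ino80c and -0.27 in the Ino80e knockdown (F test adjusted p 0.00624), and its other 2 probes gave pooled changes of -1.48 and -1.46. Myo1f, an unconventional myosin, showed -2.86, -1.68, -1.53 and -0.53, Stmn3, a microtubule regulator, -2.56, -1.87, -1.30 and -0.39, and Gjb5, a connexin, -2.40, -1.97, -1.39 and -0.30. In each of these genes the Ino80 arrays were the lowest of all 10 and the Ino80e arrays lay just under NT. Dhrs9 and Akr1d1, both oxidoreductases, were well above background only on the 2 arrays of 1 knockdown, Ino80c for Dhrs9 and Ino80b for Akr1d1. They passed the filter through that knockdown alone, so their pooled changes and F tests rest on background signal elsewhere, and no size is given.

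At the other end stood genes with nearly the same change in every knockdown. Sprn, which encodes a prion-like surface protein, went from -4.53 and -4.48 in NT to -3.42 to -2.74 (median -2.97), a rise of 1.48 ± 0.16 that was 1.36 to 1.64 in each knockdown. Barx2, a homeobox factor, and Clec4g, a lectin, rose by 1.17 ± 0.15 and 1.01 ± 0.14, with all 8 knockdown arrays above NT. Tanc2, a synaptic scaffold, rose by 1.17 ± 0.21 and Lalba, a milk protein, by 2.41 ± 0.59, but their NT arrays were apart, at -3.56 and -4.45 and at -4.44 and -6.83. C1ql2, a C1q-like secreted protein, rose by 1.04 ± 0.25. Lalba and C1ql2 were well above background on 1 of the 2 NT arrays.

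Of the even falls, Pcgf2, a Polycomb subunit, went from 0.09 and 0.77 to -1.54 to -0.78 (median -1.28). It fell by 1.64 ± 0.26, with -1.55 to -1.74 across the knockdowns. Fscn1, an actin bundler, fell by 1.34 ± 0.20, Sema4b, a semaphorin, by 1.35 ± 0.18, Vps52, a vesicle tether, by 1.10 ± 0.17 and Tmem1, under its design name, by 1.19 ± 0.18 on the log2 scale. The NT mean enters all 4 differences, so its error shifts them equally. Among the 2-fold changes, the third with the least spread between knockdowns relative to its size had a median distance of 0.48 between the NT arrays, against 0.37 in the third with the most spread, and for the 107 genes called in the F test it was 0.17. The part of that distance in the even changes was not tested.

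**Figure D3:**
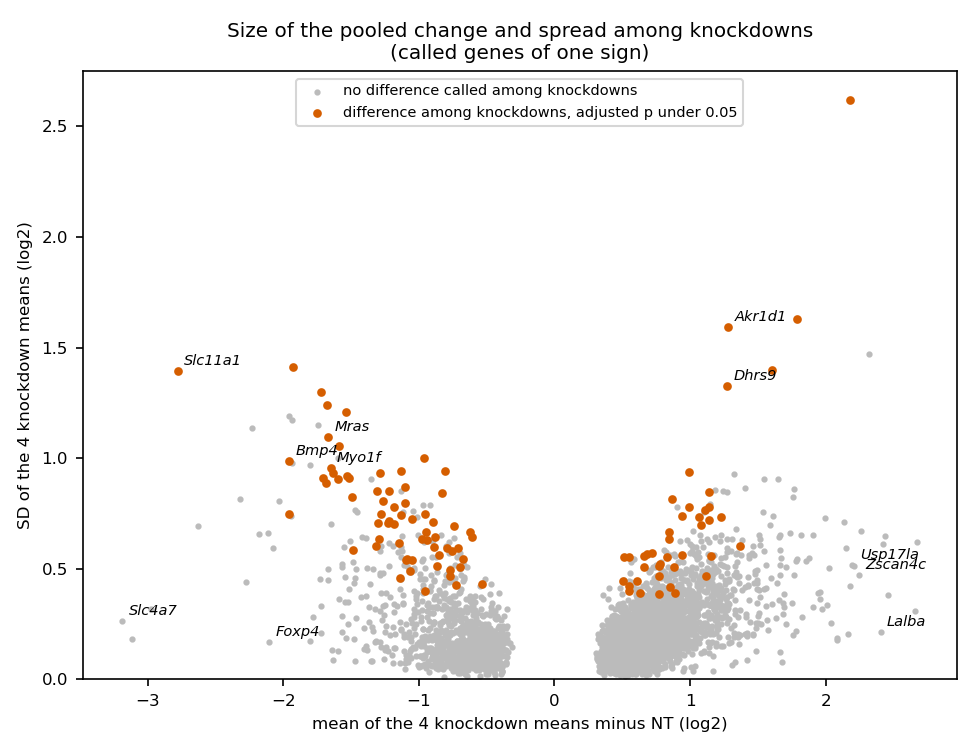
Each point is a called gene of one sign, with its pooled change (log2) on the horizontal axis and the standard deviation of the 4 knockdown means (log2) on the vertical axis. The 107 genes called in the F test among knockdowns are coloured, and Slc4a7 and Foxp4 lie low at large change while Slc11a1, Bmp4 and Mras lie high.

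Among genes of the pluripotency network, called falls outnumbered called rises. Of 38 tested members of a list of core and naive factors, 16 fell and 1 rose (44.7% called, against 18.3% of all genes), and the median change was -0.39, or -0.58 relative to all genes. In 14 of the falls all 4 knockdowns were lower. The core factors moved unequally. Nanog was at 2.98 and 3.44 in NT and at 1.73 to 3.0 (median 2.08) in the knockdowns, a fall of -0.99 ± 0.16 (adjusted p 0.0152) in which 1 Ino80e array reached the NT range. Pou5f1 (Oct4) fell less, by 0.63 ± 0.12 on the log2 scale, from 5.22 and 5.54 to 4.56 to 4.95, with no overlap. Sall4, a partner of both, fell by 0.55 ± 0.12. Sox2, named after its value was seen, had a pooled change of 0.02 ± 0.14 and was not called.

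Several factors of the naive circuit fell as well. Tfcp2l1, a factor of the naive state, was at 0.68 and 0.96 in NT and at -1.86 to 0.41 (median -1.01) in the knockdowns. Its fall of -1.64 ± 0.12 was graded, from -2.58 in the Ino80 to -0.41 in the Ino80e knockdown, and its second probe gave -1.45. Tbx3 fell by 1.59 ± 0.25 and Esrrb by 1.19 ± 0.22 on the log2 scale, and the Ino80e knockdown changed by -0.08 and -0.30, so that 1 of the 8 arrays reached the NT range for each. Klf5 fell by 0.98 ± 0.15 in all 4, while Klf4 (-0.85 ± 0.15) was at +0.01 in the Ino80e knockdown. Tcl1, an activator of AKT, Sall1, a zinc finger factor, and Utf1, a chromatin-bound factor of undifferentiated cells, fell by 1.29 ± 0.24, 1.19 ± 0.18 and 0.83 ± 0.20. Mybl2, a cell cycle transcription factor, and Il6st, the receptor chain gp130 that carries the LIF signal, fell by 0.87 ± 0.18 and 0.43 ± 0.10. Gbx2 (-0.44 ± 0.10) was called with mixed sign. Dppa3, also a germ cell gene, was the 1 rise, 1.21 ± 0.29 on all 8 arrays. Without NT replicate 2 only Tfcp2l1 of the list was called, while the median relative to all genes was -0.44.

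In the opposite direction, 8 of the 9 tested genes of the 2-cell-like list (24 were listed) rose (88.9%) and none fell, with a median of 1.44, or 1.26 relative to all genes. Beside Zscan4c, Usp17la and the Tcstv pair these were Tdpoz1 (1.44 ± 0.27), Zfp352 (1.20 ± 0.24), Usp17lb (1.18 ± 0.17) and Sp110 (1.01 ± 0.14). All 8 knockdown arrays lay above both NT arrays for each of the 8 genes. Gm5662 was not called at 0.33 (adjusted p 0.0812). None of the 9 was called in the F test, and with NT replicate 2 left out none was called in the pooled comparison, where the median was 0.96 relative to all genes. Germline and meiosis genes showed 8 rises and 2 falls among 33 (30.3% called), with a median only 0.04 above all genes. Tdrd1, which acts in the piRNA pathway, went from -0.43 and -0.83 to 0.24 to 1.14 (median 0.60), a rise of 1.27 ± 0.13. Ddx4, the germ cell helicase, rose by 1.01 ± 0.17, Taf7l by 0.79 ± 0.14, Sycp2, of the synaptonemal complex, by 0.76 ± 0.18, Piwil2 by 0.65 ± 0.16 and Slc25a31 by 0.57 ± 0.10. Kit, the stem cell factor receptor, and Piwil1 fell by 1.42 ± 0.30 and 1.14 ± 0.21 on the log2 scale.

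Primitive endoderm and basement membrane genes were the least uniform list. Of 26 tested, 9 fell and 3 rose (46.2% called, against 18.3% of all genes). The median was -0.63 relative to all genes, and by knockdown it was -1.24 (Ino80), -0.76 (Ino80b), -0.44 (Ino80c) and 0.06 (Ino80e). Of its members 13 were called in the F test, against 1.47% of all genes. Gata6, the master regulator of this lineage, was at -0.15 and -0.29 in NT and at -3.52 to 0.10 (median -1.58) in the knockdowns. It changed by -3.12 in the Ino80, -1.94 in the Ino80b, -0.61 in the Ino80c and +0.20 in the Ino80e knockdown, so that its pooled fall of -1.37 ± 0.15 was not of one sign. Pdgfra, a receptor of the lineage, followed with -3.44, -1.78, -0.38 and +0.55, and Sox7 and Aqp8 with positive values in the Ino80e knockdown as well. Sox17, a factor downstream of Gata6, was below NT in all 4 (-2.20, -1.57, -0.69 and -0.07).

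Of the basement membrane genes, 3 were called lower with one sign, and others were not. Col4a2 and Col4a1, the chains of collagen IV, fell by 1.30 ± 0.12 and 1.04 ± 0.13 on the log2 scale, and Lama1, a laminin chain, by 1.18 ± 0.14, each with all 8 knockdown arrays below NT. Their second probes gave -1.26, -1.07 and -0.41. Lamc1 and Lamb1, other laminin chains, and Nid2 were not among these falls. Lamc1 was at 4.74 and 4.73 in NT and at 4.42 to 5.05 (median 4.85) in the knockdowns. Lamb1 was at 2.42 and 2.07 in NT and at 2.00 to 2.53 (median 2.36) in the knockdowns. The summed level of the 7 primitive endoderm markers was 2.21 to 2.23 in NT and 0.23 to 2.42 in the knockdowns. In bulk RNA, fewer cells of a type and less RNA per cell cannot be told apart. Hnf4a and Lrp2, of the visceral endoderm, rose by 0.97 ± 0.17 and 0.99 ± 0.25.

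Genes of the primed epiblast, the state that follows naive pluripotency, had 8 rises and 3 falls among 24 (45.8% called), with a median 0.10 above all genes. With median scaling the list had 2 rises and 3 falls. Pou3f1 (Oct6) rose by 1.27 ± 0.17, from 4.80 and 4.25 in NT to 4.79 to 6.27 (median 6.05), with 7 of 8 arrays above NT. Fgf5 rose by 0.95 ± 0.20, Dusp6, a feedback phosphatase of ERK, by 0.61 ± 0.16, Lin28b, an RNA-binding protein, by 0.52 ± 0.11 and Dnmt3b, a DNA methyltransferase, by 0.51 ± 0.09. Otx2 (0.49 ± 0.10) and Sall2 (0.74 ± 0.10) were called, with values of -0.12 and -0.03 in the Ino80e knockdown. Foxd3, Etv5 and Etv4 fell by 0.61 ± 0.10, 0.64 ± 0.14 and 0.53 ± 0.11.

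Markers of later lineages gave no common direction. Called shares were 25% for primitive streak and mesoderm, 16.7% for neuroectoderm, 35.7% for trophectoderm and epithelium and 4.17% for Hox genes. Over all genes the share was 18.3%. Relative to all genes the medians of these 4 lists were 0.06, -0.07, -0.09 and 0.09. Primitive streak and mesoderm genes had 4 rises and 3 falls among 28, with Evx1, a homeobox factor, falling by 1.54 ± 0.26 and Tal1, a blood and endothelium factor, rising by 0.92 ± 0.20. Foxc1 (0.73 ± 0.21), Sp5 (0.63 ± 0.15) and Cdx2 (0.44 ± 0.09) rose as well, and Mesp2 (-0.70 ± 0.15) and Meox1 (-0.60 ± 0.16) fell. Neuroectoderm genes had 4 rises among 24. Among them were Fabp7, of radial glia (1.29 ± 0.22, but -0.12 in the Ino80e knockdown), Nes (0.70 ± 0.16) and Hes5 (0.67 ± 0.15). Among 28 trophectoderm and epithelial genes 6 rose and 4 fell. Bmp8b, Krt18 (0.92 ± 0.18), Esx1 (0.70 ± 0.20) and Cldn7 (0.61 ± 0.10) rose, whereas Lgals3, a galectin, went from 4.26 and 4.20 to 1.43 to 3.71 (median 2.40), a fall of -1.69 ± 0.14. Only 1 of 24 Hox genes was called, Hoxb2 (1.40 ± 0.33).

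Of 24 BMP and Id genes, 4 rose and 2 fell (25% called, against 18.3% of all genes). The list median was at that of all genes (0.01 above it). Bmp8b, the BMP ligand that rose by 1.28 ± 0.10, was counted with the trophectoderm and epithelial genes and not here. The falls of the list were Bmp4 and the antagonist Grem1. Grem1 was well above background on the NT arrays and on no knockdown array, so its call rests on background signal there. The receptor Bmpr2 (0.60 ± 0.11), the signal transducers Smad1 (0.50 ± 0.13) and Smad5 (0.58 ± 0.12) and the antagonist Dand5 (0.48 ± 0.13) rose on the probes used. Smad1 has a second probe at -0.25, and Smad5 has others at -0.16 and 0.28. With median scaling none of the 4 rises was called.

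Of 15 subunit genes of the INO80 complex, 3 were called (20%, against 18.3% of all genes), and the median was -0.39 relative to all genes. The list includes targets of the siRNAs, each lowered in its own knockdown. Their part in that median was not tested. Ino80b itself was called lower in the pooled contrast and 2 rose, the ATPase-like Ruvbl1 (0.42 ± 0.10) and the deubiquitinase Uchl5 (0.62 ± 0.12), and neither was called with median scaling. The rises were even, 0.35 to 0.47 for Ruvbl1 and 0.56 to 0.69 for Uchl5 across the knockdowns. The second Ruvbl1 probe was at -0.01. Ruvbl2, its partner ATPase, was below NT on all 8 knockdown arrays without passing the test (-0.37 ± 0.11, adjusted p 0.0561). Among 44 genes of other remodelling complexes 6 rose and 6 fell on the probes used (27.3% called, against 18.3% of all genes). Smarcd3, a BAF subunit, fell by 1.15 ± 0.13 in a graded manner (-1.72, -1.45, -1.12 and -0.30), while Smarcd1, its relative, fell by 0.97 ± 0.21 with -0.70 in the Ino80 and -1.16 in the Ino80e knockdown. Vps72, which hands over the histone variant H2A.Z, fell by 0.95 ± 0.20, with -0.88 to -0.99 in each knockdown. Gatad2b (-0.63 ± 0.13), Hdac2 (-0.49 ± 0.12) and Brd8 (-0.42 ± 0.10) were the other falls. Smarca1, an ISWI motor, rose by 0.82 ± 0.15, Arid2 by 0.76 ± 0.15, Brd7 by 0.62 ± 0.13, Smarce1 by 0.54 ± 0.13 and Chd3 by 0.90 ± 0.18. The second probe of Brd7 did not rise. Chd7 rose by 0.96 ± 0.12 on the probe used, whereas its other probes gave -0.62 and -0.94, so no direction can be given for that gene.

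Among 41 Polycomb and DNA methylation genes 6 fell and 4 rose (24.4% called, against 18.3% of all genes). Pcgf2, Kdm2b (-0.71 ± 0.12) and Ring1 (-0.49 ± 0.12), all of Polycomb complex 1, fell, while Phc2 (0.58 ± 0.09), Pcgf5 (0.53 ± 0.10) and Yaf2 (1.03 ± 0.18), of the same complexes, rose. Tet2, which oxidises methylated cytosine, fell by 1.10 ± 0.13 on the log2 scale, from -1.85 in the Ino80 to -0.07 in the Ino80e knockdown. Trim28 and Setdb1, the pair that silences retroelements, fell by 0.63 ± 0.14 and 0.68 ± 0.15, with Trim28 at 7.09 and 7.26 in NT and at 6.11 to 6.75 in the knockdowns. Together with Zfp57, which recruits them to imprints, these were lower on all 8 knockdown arrays.

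Housekeeping and stress lists had shares called near the background of 18.3% or below it. Called members were 4 of 78 ribosomal protein genes (5.13%), 5 of 55 respiratory chain genes (9.09%), 4 of 37 genes of the integrated stress response (10.8%), 6 of 47 cell cycle genes (12.8%), 5 of 35 lipid synthesis genes (14.3%), 6 of 34 glycolysis and hypoxia genes (17.6%) and 7 of 36 p53 targets (19.4%). The last list held Trp53 itself, which fell by 1.21 ± 0.29 from 3.42 and 3.67 to 1.75 to 2.88 (median 2.30), although its second probe gave -0.10. Gadd45g rose by 1.19 ± 0.22 and Pltp, a lipid transfer protein, fell by 1.46 ± 0.30. In the cell cycle list Ccnd3, a G1 cyclin, fell by 1.02 ± 0.11, and Cdkn1b and Cdk2 fell by 0.70 ± 0.15 and 0.62 ± 0.13. On the probes used Cdkn2a (0.84 ± 0.14), Mki67 (0.53 ± 0.13) and Bub1 (0.47 ± 0.12) rose, but the second probe of Mki67 hardly changed. The glycolysis and hypoxia list had 3 called rises and 3 called falls. Of the falls, Eno1 and Pkm, of glycolysis, fell by 0.72 ± 0.17 and 0.68 ± 0.15 with almost equal values in every knockdown. Acat2 and Acly, which handle acetyl-CoA, fell by 0.78 ± 0.13 and 0.63 ± 0.13 where Fasn, fatty acid synthase, rose by 0.66 ± 0.13. Ppp1r15a and Xbp1, of the stress response, fell by 0.85 ± 0.12 and 0.71 ± 0.13, in a list with 2 called rises and 2 called falls. The respiratory chain list had 2 called rises and 3 called falls, among them Sdha (-0.56 ± 0.10), with a median 0.01 above all genes.

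The interferon list was called in both directions, with 6 rises and 5 falls among 37 (29.7%) and a median 0.02 above all genes. Gbp3 (1.34 ± 0.28), Isg15 (1.08 ± 0.20), Irf1 (0.99 ± 0.16) and Bst2 (0.97 ± 0.25) rose. Ddx58 (RIG-I), a sensor of viral RNA, fell by 1.12 ± 0.15, with its other probes at -1.19 and -1.44, and Oas1a, which makes an activator of RNase L, fell by 1.23 ± 0.15. The second probe of Irf1 was at 0.01, so its rise was not seen there. Of the other lists, the second probes of Mki67 and Brd7 were at 0.04 and -0.01.

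Markers of cells other than stem cells were measured beside these groups. The fibroblast and mesenchyme list had 6 rises and 1 fall among 31 (22.6% called, against 18.3% of all genes). The rises were led by Dcn, Twist2 (0.93 ± 0.15), Cnn1 (0.83 ± 0.12) and Cd44 (0.78 ± 0.11), while Fn1 fell by 0.70 ± 0.17. The summed level of 10 feeder markers was 0.49 to 0.67 in NT and 0.56 to 0.98 in the knockdowns. Haematopoietic and macrophage genes had 4 called falls and no called rise among 16 (25%, against 18.3% of all genes). The list median was 0.03, or -0.16 relative to all genes. Cd68, a lysosomal protein of macrophages, fell by 1.22 ± 0.18 and Laptm5 by 1.51 ± 0.26, beside Slc11a1 and Gata1 (-0.48 ± 0.13). The summed level of 5 macrophage markers was 0.08 to 0.14 in NT and -1.89 to -0.47 in the knockdowns. Of these markers only Cd68 was well above background on every array. The sum rests almost wholly on Cd68, as the others were at -4.3 or lower in NT. Ptprc (0.89), Itgam (0.34), Tyrobp (-0.05) and Csf1r (-0.11) were not called, so the markers gave no common direction. Endothelial genes had 3 rises and 1 fall among 14 (28.6% called), Flt1 (0.89 ± 0.17), Cldn5 (0.50 ± 0.12) and Egfl7 (0.48 ± 0.12) against Eng (-0.76 ± 0.18). The list median was -0.03, or -0.22 relative to all genes, and 7 of the 14 changes were above 0. The summed level of 4 endothelial markers, 1 of them well above background on every array, was -1.46 to -1.37 in NT. In the knockdowns it was -2.66 to -1.29. The summed level of 6 trophectoderm markers was 1.24 to 1.97 and 1.40 to 2.42, and that of 5 neuroectoderm markers 2.89 to 3.16 and 2.99 to 3.70. The part of other cells in the changes above was not tested.

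**Figure D4:**
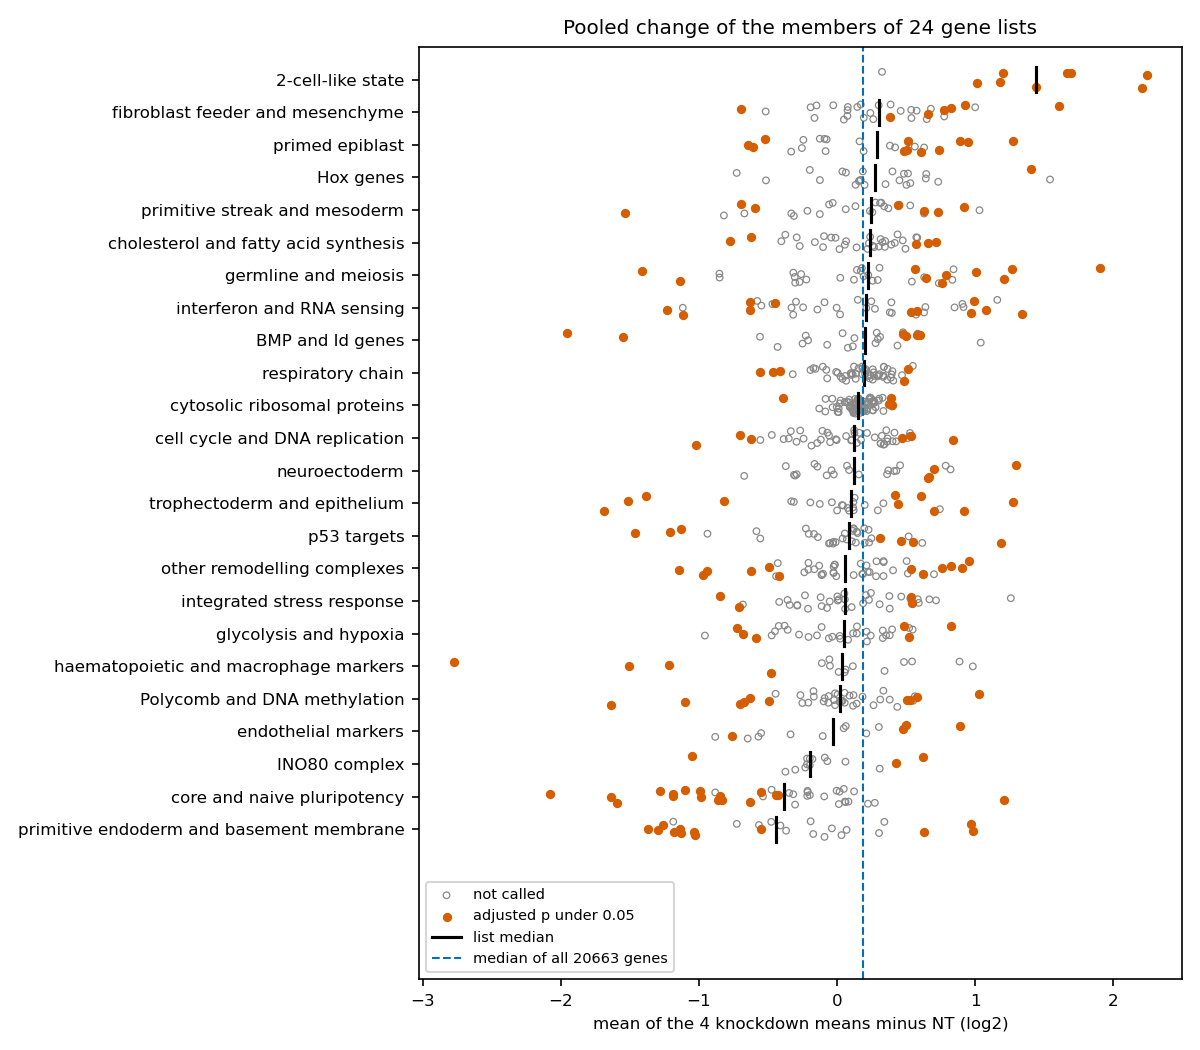
Each point is the pooled change (log2) of 1 member of 1 of the 24 gene lists, filled where the adjusted p was under 0.05, with the list median as a black bar and the median of all genes as a dashed line. The 2-cell-like list lies to the right (median 1.44), the pluripotency and primitive endoderm lists to the left (medians -0.39 and -0.44).

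The pooled directions of those 3 lists did not turn with the scaling. The 2-cell-like list had 8 to 9 rises, the pluripotency list 15 to 23 falls and the primitive endoderm list 9 to 14 falls under normexp, quantile, median and deposited scaling and the one used here. Relative to all genes their medians kept their sign under each of these and against either NT array alone. The INO80 complex (-0.39, siRNA targets included) and endothelial (-0.22) lists were the others with a median over 0.2 away from that of all genes.

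With the genes cut into 5 equal bins by level, rises were least frequent in the dimmest bin (6.77%) and ran from 12.4% to 15.6% in the others. Falls were most frequent in bins 3 and 4 from the dim end (8.93% and 8.06%). Among the autosomes and X the share of rises ran from 9.59% on chromosome 17 to 16.5% on chromosome 3, and that of falls from 3.18% on chromosome 16 to 7.92% on chromosome 11. Neighbouring called genes of one direction rarely formed runs. In the order of the RefSeq gene table (GRCm38.p6) 5 runs of at least 4 adjacent tested genes were found, all of rises, the longest with Gxylt1, Yaf2, Zcrb1, Pphln1 and Prickle1 on chromosome 15. Where a called gene of one sign had other kept probes, all of them had its sign in 885 of 1249 genes (70.9%), against 54.4% of 5212 genes that were not called.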

How the data were processed

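One-colour Agilent arrays of total RNA were scanned with Feature Extraction 9.5.3.1, which gave background-subtracted and detrended spot intensities, per the file headers. The labels name Cy5 while the deposited files hold the green channel. The authors' deposited table of log2 values equals the log2 mean signal plus a constant per array, whose origin no label or header states. Of 41143 probes left after 31 were dropped for outlier flags, 29587 were kept as well above background, and 20663 genes were tested, each by its probe of highest mean signal. Levels are log2 of the processed signal minus the array's 75th percentile. The pooled contrast, the single contrasts, the slide contrast and an F test among knockdowns were fitted over 5 groups with lmFit and eBayes of limma 3.58.1 in R 4.3.3 (residual df 5, prior df 2.23), two-sided, with Benjamini-Hochberg adjustment over all genes and calls at an adjusted p under 0.05. The fit was tested on simulated data. P-values measure the spread between these samples. Symbols came from RefSeq by accession for 22951 probes and otherwise from the array design. A motif match is a match of letters. The gene sets, lists and tests were chosen with earlier results of these data known. Named genes were the 4 siRNA targets, the 12 largest rises and falls of one sign well above background on all arrays, the 5 largest each way by bound, the 6 with the smallest F test p, the 6 rises and 6 falls of at least 2-fold with the least relative spread among knockdowns, and called list members; a few of these genes are not reported here. Alternatives were background correction, scaling, filters, probe averaging, array weights, a replicate block, slides, and each array left out. List counts by scaling and by NT array were added after seeing the data.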

Additional observations from a re-analysis of the deposited data

Results flagged for a closer look

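Single knockdown arrays stood apart from the other 7 in 13 of 205 genes that were named by rule or called in a list, by a gap over the range above Dixon's critical value for 8 values; chance gives about 1 such case in 20 groups, which is near this share. On Ino80 replicate 1 these were Gpr149 at -7.47, Smad5 at 1.6 and Dand5 at -2.26 (log2 level). On Ino80 replicate 2 these were Tbx22 at -6.1, Sema4b at -3.3, Trim28 at 6.11, Eng at -1.35, Ddx4 at 2.47 and Meox1 at -4.36 (log2 level). On Ino80c replicate 2 these were Piwil1 at -4.45, Irf3 at 3.05 and Hes5 at -3.26 (log2 level). On Ino80c replicate 1 it was Ppp1r15a at 0.34 (log2 level).

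The 4 knockdowns differed among themselves, by the moderated F test of limma over the 4 knockdown means (the NT pair shares in the spread), in these named genes, given with their adjusted p. The siRNA targets, leading genes and graded falls were Ino80 0.00945, Ino80c 0.006, Slc11a1 0.0141, Bmp4 0.00925, Parvb 0.0262, Myo1f 0.006, Mras 0.00624, Dhrs9 0.00624, Stmn3 0.00653, Akr1d1 0.00653 and Gjb5 0.00692. Among the list members were Tet2 0.0152, Tfcp2l1 0.00817, Tbx3 0.0416, Gbx2 0.0237, Cd44 0.031, Tagln 0.0307, Oas1a 0.0307, Oas2 0.0285, Fabp7 0.0278, Smarcd3 0.0285 and Fas 0.0345. Further members were Sall2 0.0262, Otx2 0.0205, Gata6 0.006, Col4a2 0.0228, Pdgfra 0.006, Lama1 0.0264, Sox7 0.00839, Sox17 0.033, Aqp8 0.0141, Amn 0.0303, Lgals3 0.0141 and Cldn7 0.0307. The values of Dhrs9 and Akr1d1 rest on signal in the background on 8 of the 10 arrays.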

How the results depend on the processing

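The 3782 calls became 6792 with normexp background, 1846 with median scaling, 1634 with no filter on dim probes, 285 with array weights, 1878 with the slide 3 knockdowns only and 1323 with 2 groups and slide as a random block. For calls of one sign (3646) the same settings gave 6534, 1783, 1581, 277, 1871 and 1323. Leaving out 1 array gave 24 to 4185 calls, and 23 to 4129 of one sign, the lowest without NT replicate 2. The F test (304) called 1133 with normexp, 1008 in the authors' deposited table, 83 with no filter, 583 over probes well above background on all arrays, 658 with array weights, 769 with a trended robust prior, and 30 to 269 with 1 array left out. The slide contrast (487) called 2435, 1398, 145, 819, 944 and 935 under those settings, 219 with median scaling, and 68 to 508 with 1 array left out. The cause of these shifts was not tested.

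Ino80e in its own knockdown passed the test with normexp (-1.23), the deposited table (-1.41) and the trended prior (-1.21). Ino80b did not with no filter (-2.0), and ranged from -2.24 to -1.76 with 1 array left out. Ino80c ranged from -2.49 to -2.19 with 1 array left out. It was at -1.98 with probes averaged, -2.13 with normexp and -2.58 with median scaling. Averaging probes reversed Chd7 (-0.20), and the slide 3 knockdowns alone reversed Pdgfra (0.0867), Sox7 (0.0143) and Aqp8 (0.16). Of 202 named called genes, 137 to 193 passed under the other scalings and backgrounds, 108 with the slide 3 knockdowns only, 86 in a 2-group fit with slide as a random block, 46 with array weights and 10 without NT replicate 2.

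With the replicate number as a block, the counts were 6462, 6090 of one sign, 1319 (F test) and 1661 (slide), and Ino80e was at -1.21 (adjusted p 0.0425, limma). Deviations of same-numbered arrays correlated at 0.264 to 0.321 across genes between NT, Ino80, Ino80b and Ino80e. In pairs with Ino80c the correlation was 0.0041 to 0.142, and under 0.1 for 2 of all 10 pairs of groups. The main fit did not take the numbers to pair the samples, as Ino80c shared little in this, and whether the other groups were paired was not tested. Precision is limited by 2 arrays a group.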
